A study of Mus musculus with 9 samples.

Results

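Blood vessels in these brain tumours were read through 10 genes: the secreted ligands Vegfa, Vegfb, Angpt1 and Angpt2, the endothelial receptors Kdr, Flt1, Tek and Tie1, and the endothelial surface genes Pecam1 and Cdh5. They were taken by gene symbol from a table of 24444 symbols. All 10 were present and all 10 passed the filter on low counts, which left 15171 genes to test.

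The libraries came from a mouse model of WNT medulloblastoma, a tumour of the hindbrain, in a study that asked what added Myc does to it. RNA of 9 tissue pieces was sequenced, 3 in each of 3 groups described as biological replicates. MycT58A tumours and EV tumours both grew at the orthotopic site in CD1-nude hosts, which lack a thymus. The implanted cells came from Blbp-Cre mice carrying Ctnnb1Ex3flx/flx, Trp53flx/flx and Pik3caE545K +/flx, so both tumour groups share stabilised beta-catenin, the floxed p53 gene and the active E545K form of the PI3-kinase subunit. Cre was driven by the Blbp promoter, which is active in radial glia and other neural progenitors. In addition the cells carried either MycT58A, a form of Myc whose T58A change slows its degradation, or EV, read here as the empty vector. The third group was normal cerebellum of CD1-nude mice. Tumour pieces were cut out as GFP-positive regions, so vessels and immune cells of the host are part of the sample, and the sources used here give neither the age nor the number of animals.

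Vascular endothelial growth factor A, the product of Vegfa, drives vessel growth mainly through the receptor KDR. FLT1 binds the same ligand more tightly but signals weakly, so it is often described as a sink for it, and VEGF-B, the product of Vegfb, binds FLT1 but not KDR. Angiopoietin 1 from perivascular cells activates the receptor TEK (also called TIE2) and keeps vessels quiet and tight, angiopoietin 2 from endothelial cells can block that signal, and TIE1 is a co-receptor that modulates it. In brain these genes are expressed by an endothelium that forms the blood-brain barrier, and human WNT medulloblastoma is known for vessels that lack it.

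The libraries held 16631523 to 30410089 counts in genes, and levels are given as CPM, the count relative to the library's TMM-scaled total. Myc itself was read at 918, 859 and 727 CPM in the MycT58A tumours, at 360, 19.9 and 762 CPM in the EV tumours and at 0.940, 1.60 and 32.0 CPM in control cerebellum. The library labelled EV replicate 3 thus lay inside the MycT58A range, and EV replicate 2 lay below control replicate 3. EV tumours were also the least alike, with a median SD per gene of 0.64 on the log2 scale, against 0.20 in MycT58A tumours and 0.17 in control cerebellum. All 12 cerebellar neuron markers were lower in both tumour groups than in control cerebellum, and none was at 0 in any library.

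By edgeR's quasi-likelihood test, 1 of the 10 genes passed an adjusted p of 0.05 in MycT58A against EV tumours, where 8.3% of all tested genes did. In EV tumours against control cerebellum 2 of the 10 passed, where 57% of all genes did, and in MycT58A tumours against control 3 of the 10 passed, where 62.2% of all genes did. Counted by values that do not overlap between groups, 2 of the 10 genes separated MycT58A from EV tumours (31.8% of all genes), 4 separated EV tumours from control (62.5%) and 7 separated MycT58A tumours from control (82.5%). The share between the tumour groups is close to the background, and those against control lie below it, a difference that was not tested. Without the library labelled EV replicate 3 the counts of called genes were 2, 1 and 3, where 25.7%, 58% and 68.1% of all genes passed. Without EV replicate 2 they were 1, 6 and 5, where 16.6%, 65.9% and 70.3% of all genes passed.

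**Figure D1:**
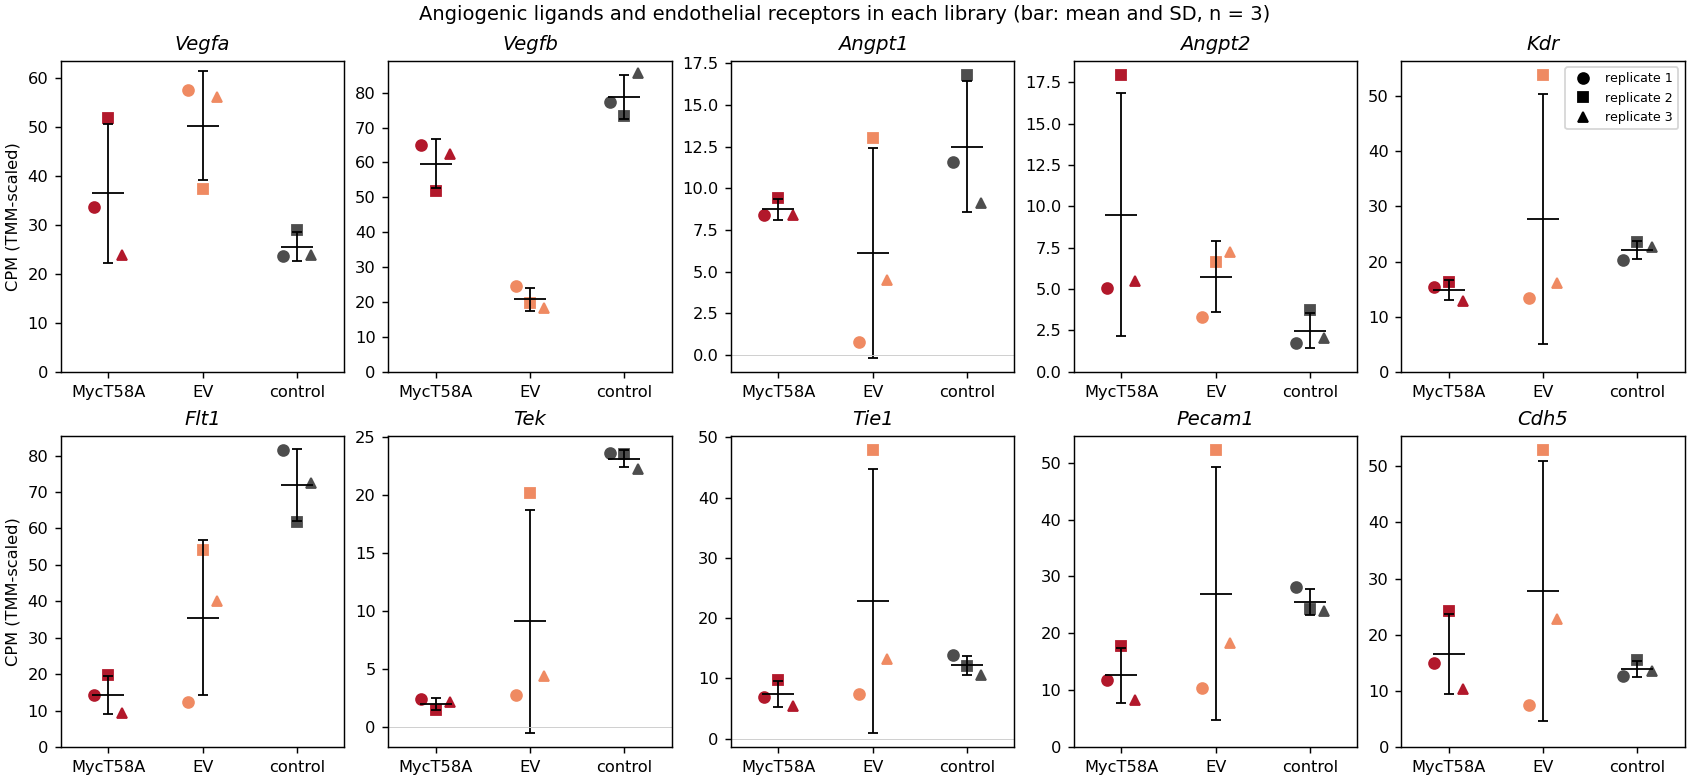
Level of each of the 10 genes in CPM (TMM-scaled, linear axis from 0, a separate range in each panel) in MycT58A tumours, EV tumours and control cerebellum; points are libraries, with a marker per replicate, and bars are the mean and SD of 3 libraries. Vegfb is lowest in all 3 EV tumours, Tek is higher in all 3 control libraries than in any tumour, with EV replicate 2 nearest to them at 20.1 CPM, and EV replicate 2 is the highest library of all 9 for Kdr, Tie1, Pecam1 and Cdh5.

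Vegfb, at chr19:6982473-6987651 on the minus strand (mm10, GENCODE vM21, as for all genes here), changed in both comparisons with EV tumours. It stood at 64.9, 51.8 and 62.3 CPM in MycT58A tumours, at 24.6, 19.8 and 18.2 CPM in EV tumours and at 77.3, 73.4 and 85.6 CPM in control cerebellum. No value of 1 group reached into another. Vegfb was 2.86-fold higher in MycT58A than in EV tumours (log2 fold change 1.52 ± 0.19 SE, edgeR adjusted p = 0.00879). It was 3.78-fold lower in EV tumours than in control (-1.92 ± 0.19, edgeR adjusted p = 0.000104). The fall against control was called in all 16 alternative settings. The call between the tumour groups was kept without the library labelled EV replicate 3 (2.68-fold, edgeR adjusted p = 0.00348) and was lost without MycT58A replicate 3 (2.82-fold, edgeR adjusted p = 0.0585) and when control libraries were left out of the fit (2.71-fold, edgeR adjusted p = 0.0632). In MycT58A tumours against control the log2 fold change was -0.40 ± 0.18 (edgeR adjusted p = 0.0872). That comparison passed in 4 of 16 alternatives. These were limma-voom (adjusted p = 0.00583), DESeq2 (adjusted p = 0.0176), only these groups in the fit (edgeR adjusted p = 0.015) and library size alone (edgeR adjusted p = 0.0393).

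The start of Vegfb is shown because its level sets EV tumours apart from both other groups. The window of chr19:6987602-6987901 (RefSeq, GRCm38.p6, read on the minus strand) holds 250 bases before the annotated start and 50 after it, and 75.3% of its bases are G or C, where the median over all 32851 such windows is 52.7%.
Vegfb: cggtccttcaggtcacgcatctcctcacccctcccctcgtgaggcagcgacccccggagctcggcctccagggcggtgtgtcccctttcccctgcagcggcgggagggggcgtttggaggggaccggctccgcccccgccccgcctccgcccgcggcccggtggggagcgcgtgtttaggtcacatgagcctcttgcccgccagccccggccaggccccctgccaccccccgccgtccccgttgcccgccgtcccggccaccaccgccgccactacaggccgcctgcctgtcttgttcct
Windows were searched on both strands for 5 motifs, each as an exact string. Other forms of the same sites were not searched for. The MYC E-box, CACGTG, occurs in 7.15% of all windows. ACGTG is a form of the core of a hypoxia response element. Every MYC E-box contains it, and it occurs in 19.6% of all windows. AGGAAG, a form of the ETS site, is found in 35.4% of windows and CTTTGA, a form of the TCF/LEF site, in 16% of windows. The cyclic AMP response element TGACGTCA, which was added after the sequences had been seen, is in 1.79% of them. None of these motifs occurs in the Vegfb window, which therefore stands in lower case throughout.

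Vegfa (chr17:46016993-46032369, minus strand), the main growth factor for vessels, was read at 33.6, 51.8 and 23.8 CPM in MycT58A tumours, at 57.4, 37.3 and 56.0 CPM in EV tumours and at 23.7, 28.9 and 23.9 CPM in control cerebellum. EV tumours lay wholly above control, and the MycT58A tumours overlapped both groups. The gene was 1.97-fold higher in EV tumours than in control (0.98 ± 0.31, edgeR adjusted p = 0.0242), a call that 10 of 16 alternatives kept. It was lost under limma-voom (adjusted p = 0.137), without EV replicate 1 (1.83-fold, edgeR adjusted p = 0.0608), without the library labelled EV replicate 3 (1.90-fold, edgeR adjusted p = 0.0528), and without control replicate 1, 2 or 3 (edgeR adjusted p = 0.0787, 0.0502 and 0.0755). Between MycT58A and EV tumours the log2 fold change was -0.46 ± 0.31 (edgeR adjusted p = 0.324), and between MycT58A tumours and control it was 0.51 ± 0.31 (edgeR adjusted p = 0.171). RefSeq gives Vegfa a pair of start windows in the table used here. The one at chr17:46025114-46025413 lies wholly inside the gene as placed above. It held ACGTG on the reverse strand, 211 bases before its annotated start, and whether that match acts on Vegfa was not tested. The one at chr17:46032328-46032627 held none of the 5 motifs.

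Angpt2 (chr8:18690263-18741562, minus strand), the angiopoietin that endothelial cells release when vessels are remodelled, was read at 5.07, 17.96 and 5.50 CPM in MycT58A tumours, at 3.29, 6.67 and 7.26 CPM in EV tumours and at 1.72, 3.72 and 2.05 CPM in control cerebellum. Every MycT58A tumour exceeded every control library, and MycT58A replicate 2 had more than any other library. Angpt2 was 3.805-fold higher in MycT58A tumours than in control (1.93 ± 0.61, edgeR adjusted p = 0.022). Without MycT58A replicate 2 the difference was 2.13-fold and not called (edgeR adjusted p = 0.104), and it was also not called without control replicate 1 (3.35-fold, edgeR adjusted p = 0.0789) or control replicate 3 (3.58-fold, edgeR adjusted p = 0.0737). EV tumours against control gave 1.20 ± 0.60 (edgeR adjusted p = 0.116), and MycT58A against EV tumours gave 0.73 ± 0.59 (edgeR adjusted p = 0.419), so the tumour groups were not shown to differ.

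Angpt1 (chr15:42424723-42676977, minus strand), which perivascular cells secrete to activate TEK, did not pass in any comparison. Its levels were 8.38, 9.44 and 8.40 CPM in MycT58A tumours, 0.788, 13.04 and 4.54 CPM in EV tumours and 11.6, 16.8 and 9.15 CPM in control cerebellum. The EV tumours spanned a wider range than both other groups together. The log2 fold changes were 0.51 ± 0.76 in MycT58A against EV tumours (edgeR adjusted p = 0.667), -1.03 ± 0.77 in EV tumours against control (edgeR adjusted p = 0.274) and -0.52 ± 0.76 in MycT58A tumours against control (edgeR adjusted p = 0.573). Without EV replicate 2, Angpt1 was 4.76-fold lower in EV tumours than in control (edgeR adjusted p = 0.0187). Of its exon bases, 737 (17.3%) are shared with Gm17473 on the opposite strand, and the sources used here do not say whether counting used the strand, so reads of the pair may be mixed; no other of the 10 genes shares exon bases.

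**Figure D2:**
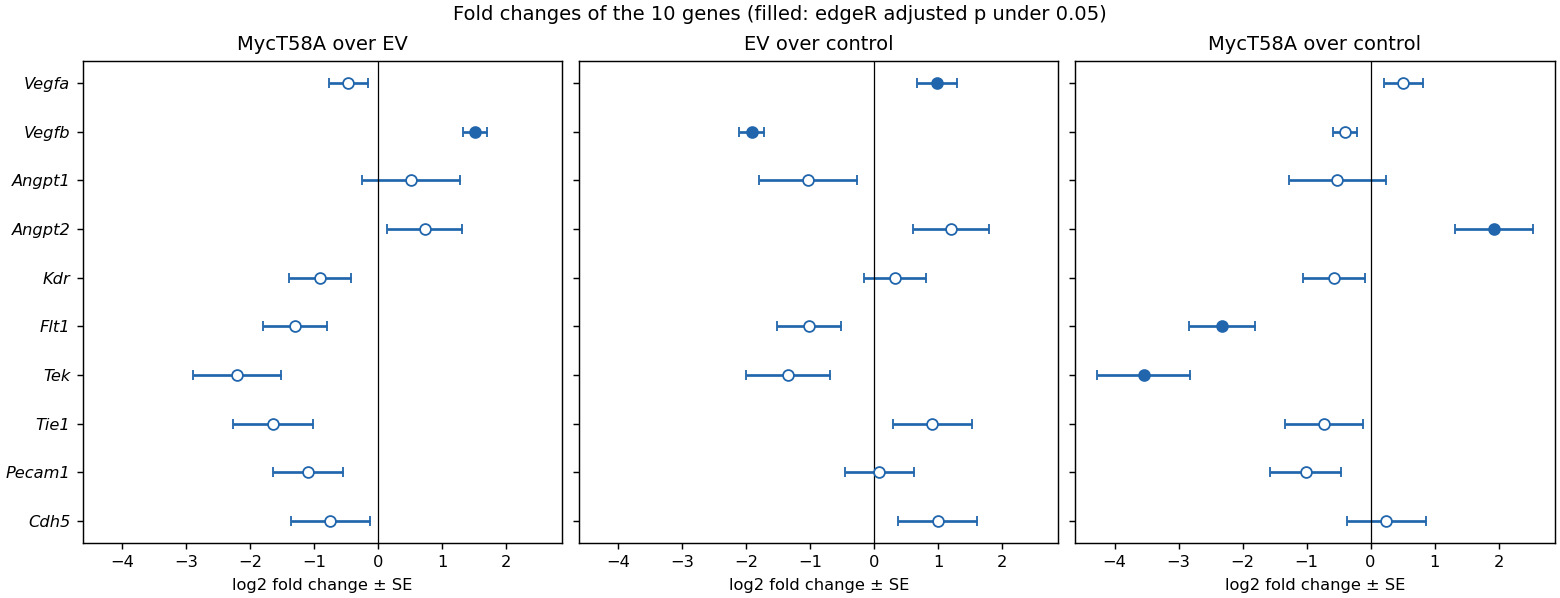
Log2 fold change of each of the 10 genes (point) with its SE (line) in MycT58A over EV tumours, EV tumours over control and MycT58A tumours over control; filled points passed an edgeR adjusted p of 0.05. Vegfb is the 1 filled point between the tumour groups, Vegfa and Vegfb are filled in EV tumours over control, and Angpt2, Flt1 and Tek are filled in MycT58A tumours over control.

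Among the receptors, Tek and Flt1 were lower in MycT58A tumours than in control cerebellum, and Kdr and Tie1 were not called. The samples are bulk tissue, so fewer endothelial cells and less RNA of these genes per cell cannot be told apart.

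Tek (chr4:94739289-94874976, plus strand), the angiopoietin receptor, was read at 2.41, 1.42 and 2.09 CPM in MycT58A tumours, from 67, 40 and 49 counts, at 2.74, 20.1 and 4.37 CPM in EV tumours and at 23.6, 23.5 and 22.3 CPM in control cerebellum. All 6 tumours lay below all 3 control libraries, and among the tumours EV replicate 2 lay closest to control. Tek was 11.7-fold lower in MycT58A tumours than in control (-3.55 ± 0.72, edgeR adjusted p = 0.00283), a call kept in 16 of 16 alternatives, with edgeR, DESeq2 or limma-voom adjusted p-values of at most 0.0148. EV tumours against control gave -1.35 ± 0.66 (edgeR adjusted p = 0.111); without EV replicate 2 the gene was 6.50-fold lower and called (edgeR adjusted p = 0.000251).

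Between the tumour groups Tek was not called, at -2.20 ± 0.69 (edgeR adjusted p = 0.0766), although the values of the groups did not overlap. DESeq2 called it (adjusted p = 0.00862), and so did edgeR without EV replicate 1 (6.18-fold lower, adjusted p = 0.032) and without the library labelled EV replicate 3 (5.73-fold lower, edgeR adjusted p = 0.0323). Without EV replicate 2 the same difference was 1.79-fold (edgeR adjusted p = 0.0944). EV replicate 2 was thus the library that moved this value most.

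Flt1 (chr5:147561604-147726011, minus strand), the receptor for both VEGF-A and VEGF-B, was read at 14.2, 19.6 and 9.21 CPM in MycT58A tumours, at 12.2, 54.1 and 40.1 CPM in EV tumours and at 81.4, 61.8 and 72.4 CPM in control cerebellum. Both tumour groups lay below control without overlap. Flt1 was 5.001-fold lower in MycT58A tumours than in control (-2.32 ± 0.51, edgeR adjusted p = 0.00425), a call kept in 16 of 16 alternatives with adjusted p-values of at most 0.0201. EV tumours against control gave -1.02 ± 0.49 (edgeR adjusted p = 0.107; without EV replicate 2, 2.74-fold lower and adjusted p = 0.0361). MycT58A against EV tumours gave -1.30 ± 0.50 (edgeR adjusted p = 0.12; without EV replicate 1, 3.26-fold lower and adjusted p = 0.0224).

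Kdr (chr5:75932827-75978458, minus strand), the main signalling receptor for VEGF-A, was read at 15.4, 16.4 and 12.8 CPM in MycT58A tumours, at 13.3, 53.9 and 16.2 CPM in EV tumours and at 20.3, 23.5 and 22.6 CPM in control cerebellum. The MycT58A tumours lay below control, and the EV tumours lay on both sides of it. The log2 fold change was -0.58 ± 0.49 in MycT58A tumours against control (edgeR adjusted p = 0.325). Kdr passed in 3 of the 16 alternatives of that comparison: with only these groups in the fit (edgeR adjusted p = 0.00685), under limma-voom (adjusted p = 0.0164) and without EV replicate 2 (edgeR adjusted p = 0.0204). EV tumours against control gave 0.33 ± 0.48 (edgeR adjusted p = 0.579), and the sign turned without EV replicate 2 (-0.58, edgeR adjusted p = 0.0335). MycT58A against EV tumours gave -0.90 ± 0.49 (edgeR adjusted p = 0.238).

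Tie1 (chr4:118471191-118490061, minus strand), the co-receptor of TEK, was read at 6.84, 9.69 and 5.46 CPM in MycT58A tumours, at 7.47, 47.9 and 13.2 CPM in EV tumours and at 13.9, 12.01 and 10.6 CPM in control cerebellum. Its log2 fold changes were -1.64 ± 0.62 in MycT58A against EV tumours (edgeR adjusted p = 0.119), 0.91 ± 0.61 in EV tumours against control (edgeR adjusted p = 0.229) and -0.73 ± 0.61 in MycT58A tumours against control (edgeR adjusted p = 0.323). The MycT58A tumours lay below all control libraries, and EV replicate 2 lay far above every other library. Between the tumour groups Tie1 passed by DESeq2 (adjusted p = 0.0403) and by edgeR without EV replicate 1 (4.14-fold lower, adjusted p = 0.0431).

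The start windows of the receptors are shown together because Flt1 and Tek were called against control and Kdr and Tie1 were not. They lie at chr5:147725962-147726261 on the minus strand for Flt1, chr4:94739039-94739338 on the plus strand for Tek, chr5:75978406-75978705 on the minus strand for Kdr and chr4:118489800-118490099 on the minus strand for Tie1 (RefSeq, GRCm38.p6). Capitals mark AGGAAG, or CTTCCT where it lies on the reverse strand, and TGACGTCA.
Flt1: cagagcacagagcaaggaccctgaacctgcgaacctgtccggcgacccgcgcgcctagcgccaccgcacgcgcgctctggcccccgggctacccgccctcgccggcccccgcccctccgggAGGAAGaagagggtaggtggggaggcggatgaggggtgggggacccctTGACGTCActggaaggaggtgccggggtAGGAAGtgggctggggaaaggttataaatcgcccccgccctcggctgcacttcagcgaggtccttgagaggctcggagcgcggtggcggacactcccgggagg
Tek: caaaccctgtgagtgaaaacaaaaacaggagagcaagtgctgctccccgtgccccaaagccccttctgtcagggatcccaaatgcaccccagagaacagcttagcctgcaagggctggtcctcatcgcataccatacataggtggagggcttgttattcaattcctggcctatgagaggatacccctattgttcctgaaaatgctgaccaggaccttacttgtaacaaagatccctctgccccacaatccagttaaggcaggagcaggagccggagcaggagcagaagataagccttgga
Kdr: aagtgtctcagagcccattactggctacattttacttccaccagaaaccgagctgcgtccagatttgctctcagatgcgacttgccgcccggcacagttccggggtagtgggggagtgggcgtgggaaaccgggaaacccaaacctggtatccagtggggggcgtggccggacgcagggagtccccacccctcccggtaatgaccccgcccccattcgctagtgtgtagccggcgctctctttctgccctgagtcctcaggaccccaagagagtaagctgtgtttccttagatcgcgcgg
Tie1: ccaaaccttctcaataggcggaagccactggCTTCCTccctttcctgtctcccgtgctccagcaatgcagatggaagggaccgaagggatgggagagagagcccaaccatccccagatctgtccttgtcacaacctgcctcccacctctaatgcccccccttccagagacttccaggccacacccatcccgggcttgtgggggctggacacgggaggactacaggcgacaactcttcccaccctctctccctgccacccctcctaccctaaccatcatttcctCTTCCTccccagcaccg
The Flt1 window, with 70.7% G or C, holds AGGAAG at 129 and at 53 bases before the start and TGACGTCA at 81 bases before it. The Tek window has 52.0% G or C and holds none of the 5 motifs, and neither does the Kdr window with 60.7%. In the Tie1 window, with 60.3%, AGGAAG lies on the reverse strand 219 bases before and 33 bases after the start. The called receptors thus do not share any of these exact strings in this window. Whether they share other forms of the sites was not tested. RefSeq windows were found for 6 of the 10 genes.

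Pecam1 (chr11:106654217-106750628, minus strand) and Cdh5 (chr8:104101625-104144511, plus strand) encode the adhesion molecules PECAM-1 and VE-cadherin of endothelial cell contacts. They serve here as endothelial reference genes. Pecam1 was read at 11.7, 17.8 and 8.31 CPM in MycT58A tumours, at 10.4, 52.3 and 18.2 CPM in EV tumours and at 28.2, 24.3 and 24.0 CPM in control cerebellum. Cdh5 was read at 14.9, 24.3 and 10.3 CPM in MycT58A tumours, at 7.40, 53.0 and 22.8 CPM in EV tumours and at 12.7, 15.6 and 13.5 CPM in control cerebellum. The MycT58A tumours lay below control in Pecam1 and on both sides of control in Cdh5.

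By edgeR with all libraries neither gene passed in any comparison. Under limma-voom Pecam1 was called lower in MycT58A tumours than in control (-1.06, adjusted p = 0.00304). In MycT58A tumours against control the log2 fold change was -1.01 ± 0.55 for Pecam1 (edgeR adjusted p = 0.138) and 0.25 ± 0.61 for Cdh5 (edgeR adjusted p = 0.742). In EV tumours against control it was 0.08 ± 0.54 for Pecam1 (edgeR adjusted p = 0.906) and 0.99 ± 0.62 for Cdh5 (edgeR adjusted p = 0.195; without EV replicate 1, 2.73-fold higher and adjusted p = 0.0264). Between MycT58A and EV tumours it was -1.10 ± 0.55 for Pecam1 (edgeR adjusted p = 0.21) and -0.75 ± 0.61 for Cdh5 (edgeR adjusted p = 0.43). A single dispersion per gene was used for all 9 libraries. With only MycT58A and control libraries in the fit, 7 of the 10 genes passed in that comparison, where 80.5% of all genes did: Angpt2, Flt1, Tek, Vegfb (edgeR adjusted p = 0.015), Kdr (0.00685), Tie1 (0.0251) and Pecam1 (0.00861).

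To set the other genes against endothelial genes of the same library, the mean log2 CPM of Pecam1 and Cdh5 was subtracted from theirs. These differences were not tested. The reference genes moved apart in MycT58A tumours against control, at -1.01 for Pecam1 and 0.25 for Cdh5. The median of 20 other endothelial markers was -1.14 there, so the differences are relative to Pecam1 and Cdh5 only. For Tek the difference was -2.42, -3.80 and -2.11 in MycT58A tumours, -1.65, -1.38 and -2.20 in EV tumours and 0.32, 0.27 and 0.31 in control cerebellum. All 6 tumours were thus low in Tek relative to the adhesion genes, EV replicate 2 included, which had the highest plain Tek level of the tumours.

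For Flt1 the same difference was 0.11, -0.08 and -0.01 in MycT58A tumours, 0.47, 0.04 and 0.97 in EV tumours and 2.10, 1.66 and 2.004 in control. Here too both tumour groups lay below control without overlap. Kdr had similar group means, at 0.11 ± 0.42 in MycT58A tumours, 0.10 ± 0.47 in EV tumours and 0.23 ± 0.12 in control (SD, n = 3 each), and the groups overlapped. Tie1 averaged -0.93 ± 0.17 in MycT58A tumours, -0.33 ± 0.26 in EV tumours and -0.63 ± 0.16 in control, with overlap of the EV tumours and of the MycT58A tumours with control. In MycT58A tumours the receptors called against control, Tek and Flt1, also lay apart from control relative to Pecam1 and Cdh5. The relative value contains the plain level, so it is not separate evidence. In EV tumours Tek and Flt1 lay apart by this measure without being called by edgeR with all libraries.

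Vegfa relative to the same genes stood at 1.34, 1.31 and 1.36 in the MycT58A tumours, at 2.70, -0.49 and 1.45 in the EV tumours and at 0.32, 0.57 and 0.41 in control. The MycT58A tumours were all above control by this measure, although their plain Vegfa levels overlapped it. The difference of Angpt2 and Angpt1 in log2 CPM, a rough balance of the angiopoietins, was -0.72, 0.92 and -0.60 in MycT58A tumours, 1.95, -0.96 and 0.67 in EV tumours and -2.70, -2.15 and -2.11 in control. Every tumour of either group lay above every control library, and the tumour groups overlapped. MycT58A replicate 2 and EV replicate 1 had the highest values of their groups, from high Angpt2 in the one and from low Angpt1 in the other.

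**Figure D3:**
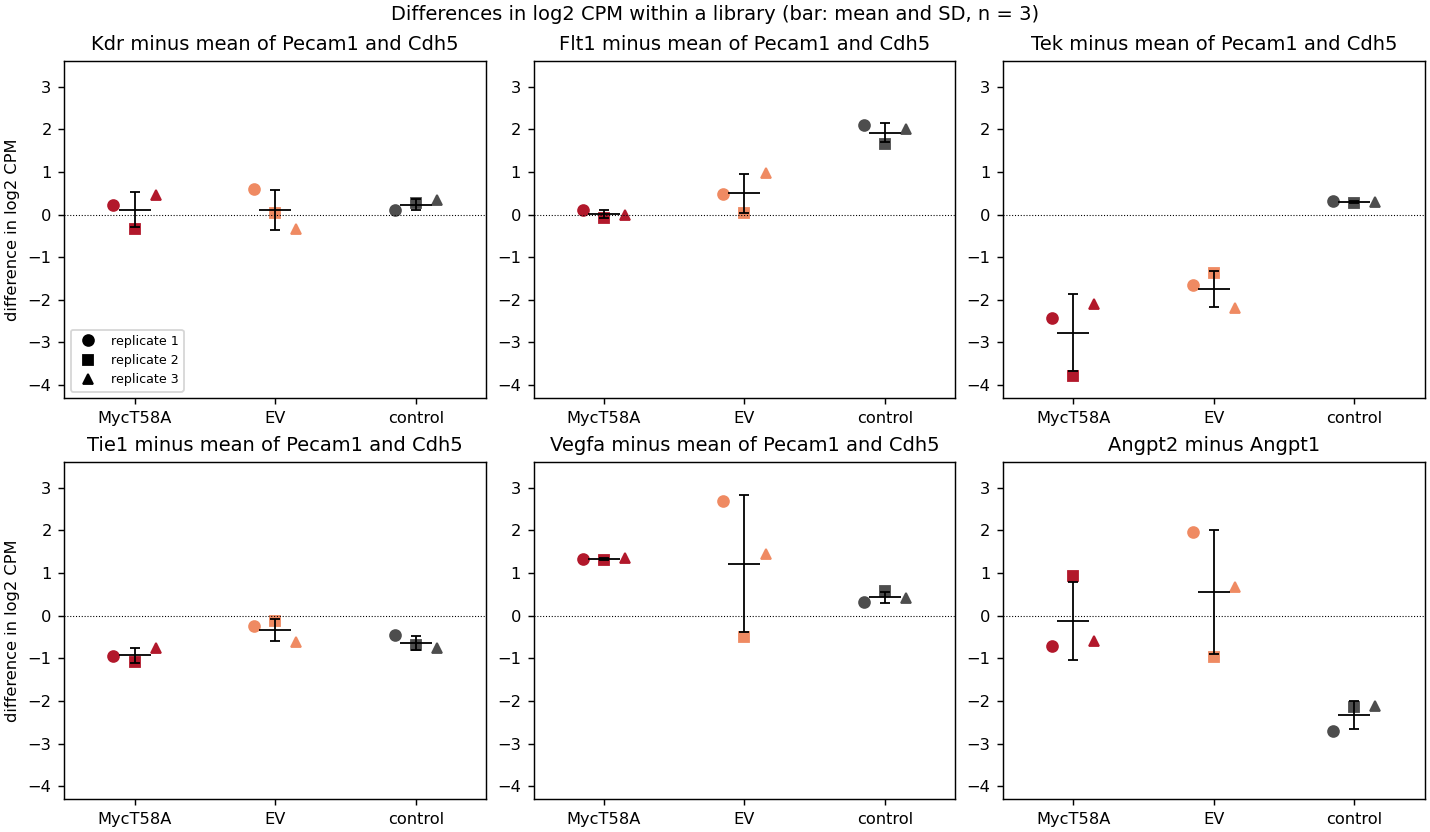
Differences in log2 CPM within a library for Kdr, Flt1, Tek, Tie1 and Vegfa against the mean of Pecam1 and Cdh5, and for Angpt2 against Angpt1, in MycT58A tumours, EV tumours and control cerebellum; points are libraries, bars are mean and SD (n = 3), and all panels share an axis range. Tek and Flt1 lie lower in all 6 tumours than in control, Angpt2 against Angpt1 lies higher in all 6, and Kdr overlaps between the groups.

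Levels per length of exon allow a rough comparison of different genes. The length was the union of all annotated exons, from 1281 bases for Vegfb to 10961 for Flt1. The transcripts present may be shorter, which would raise a gene's level per length. By this measure Vegfb was the first gene in each group. It had 46.6 ± 5.42 CPM per kb in MycT58A tumours, 16.3 ± 2.59 in EV tumours and 61.5 ± 4.88 in control cerebellum (SD, n = 3 each). Vegfa came second at 10.3 ± 4.03, 14.3 ± 3.18 and 7.23 ± 0.838 CPM per kb in MycT58A tumours, EV tumours and control. The ligands overlapped in EV tumours and did not overlap in the other groups.

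Below them the order differed between the groups. In MycT58A tumours Cdh5 (4.13 CPM per kb), Pecam1 (3.05), Angpt2 (2.67), Kdr (2.51), Angpt1 (2.05), Tie1 (1.61) and Flt1 (1.31) followed, each overlapping the next, and Tek came last at 0.420 ± 0.108 CPM per kb without overlap. Angpt2 stood there by MycT58A replicate 2, without which its mean was 1.48 CPM per kb, below Kdr (2.38) and Angpt1 (1.97). In EV tumours Cdh5 (6.94 CPM per kb), Pecam1 (6.53), Tie1 (5.02), Kdr (4.69), Flt1 (3.24), Tek (1.93), Angpt2 (1.61) and Angpt1 (1.44) followed, and all neighbours overlapped. Without EV replicate 2 these means were 3.78 CPM per kb for Cdh5, 3.47 for Pecam1, 2.27 for Tie1, 2.49 for Kdr, 2.39 for Flt1, 0.756 for Tek, 1.48 for Angpt2 and 0.625 for Angpt1, so Kdr and Flt1 then came before Tie1 and Angpt2 before Tek. In control cerebellum Flt1 came next at 6.56 CPM per kb, overlapping Vegfa and Pecam1 (6.17), and then Tek at 4.91 without overlapping either neighbour. Kdr (3.74), Cdh5 (3.48), Angpt1 (2.94) and Tie1 (2.67) followed there, each overlapping the next, and Angpt2 was last at 0.701 CPM per kb, apart from Tie1.

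**Figure D4:**
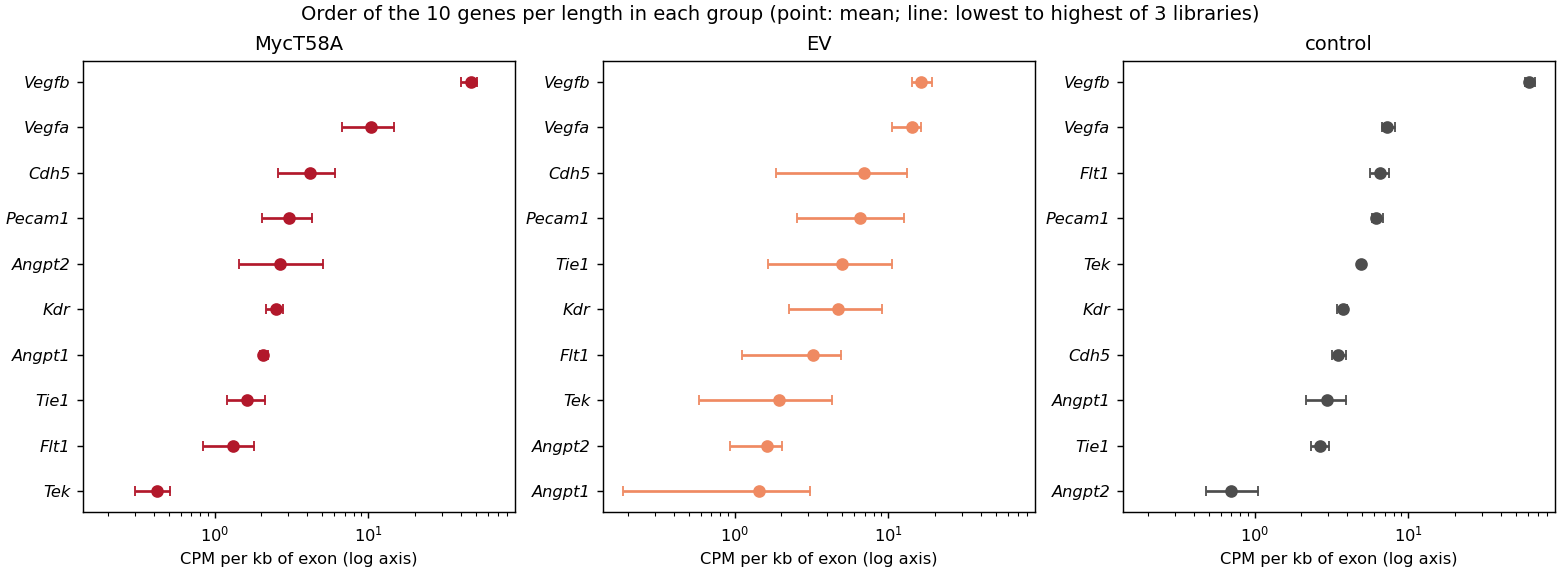
Order of the 10 genes by CPM per kb of exon (log axis) in MycT58A tumours, EV tumours and control cerebellum; points are means and lines run from the lowest to the highest of 3 libraries. Vegfb leads in each group, Tek is last in MycT58A tumours and ahead of Kdr in control, and Angpt2 is last in control.

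Beyond the 10 genes, 17 of 18 listed angiogenic ligands were tested. In MycT58A against EV tumours none rose and 1 fell, in EV tumours against control 5 rose and 3 fell, and in MycT58A tumours against control 4 rose and 5 fell. Their median log2 fold changes were -0.38, 0.50 and 0.32, where the medians of all genes were -0.04, 0.14 and -0.02. For this list and those below, the shares of all genes called in these comparisons were 8.3%, 57% and 62.2%. Without EV replicate 2 the shares were 16.6%, 65.9% and 70.3%, and without the library labelled EV replicate 3 they were 25.7%, 58% and 68.1%. Tgfb1, which encodes a cytokine that acts on vessel walls and matrix, averaged 16.03 ± 3.79 CPM in MycT58A tumours, 124 ± 53.7 CPM in EV tumours and 8.85 ± 0.866 CPM in control (SD, n = 3 each). It was 7.73-fold lower in MycT58A than in EV tumours (edgeR adjusted p = 0.00783; without MycT58A replicate 3, 6.83-fold and 0.0582; with only the tumours in the fit, 0.0605) and 14.003-fold higher in EV tumours than in control (edgeR adjusted p = 9.23e-05). Adm, which encodes the vessel-dilating peptide adrenomedullin, averaged 9.85 ± 5.32 CPM in MycT58A tumours, 3.93 ± 0.975 CPM in EV tumours and 1.06 ± 0.328 CPM in control. It rose against control in both, 9.28-fold in MycT58A tumours (edgeR adjusted p = 0.000628) and 3.71-fold in EV tumours (edgeR adjusted p = 0.00855; limma-voom, 0.14).

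Of the ligands that fell, Ndp, whose product norrin signals to endothelial cells, averaged 1.10 ± 0.262 CPM in MycT58A tumours, 1.03 ± 1.25 CPM in EV tumours and 16.3 ± 1.01 CPM in control. It was 14.7-fold lower in MycT58A tumours (edgeR adjusted p = 0.00302) and 15.8-fold lower in EV tumours (edgeR adjusted p = 0.00333; without EV replicate 2, 52.6-fold) than in control. Wnt7a, a WNT ligand for brain endothelium that neural cells make, averaged 0.508 ± 0.381 CPM in MycT58A tumours, 5.05 ± 7.07 CPM in EV tumours and 61.6 ± 25.9 CPM in control. It was 120-fold lower in MycT58A tumours than in control (edgeR adjusted p = 0.00201; without MycT58A replicate 1, 187-fold) and 12.3-fold lower in EV tumours (edgeR adjusted p = 0.0218). The EV value ranged from 8.82-fold without EV replicate 1 (edgeR adjusted p = 0.0511) to 61.8-fold without the library labelled EV replicate 3, and the call was also lost without control replicate 1 (edgeR adjusted p = 0.0513) or control replicate 2 (edgeR adjusted p = 0.0654) and under limma-voom (adjusted p = 0.0542). Wnt7b, its paralog, which was added after its values were seen, averaged 0.592 CPM in MycT58A tumours, 13.7 CPM in EV tumours, where the library labelled EV replicate 3 had 39.3 CPM, and 12.8 CPM in control. It was lower in MycT58A tumours than in control (edgeR adjusted p = 0.029) and did not pass in EV tumours against control (edgeR adjusted p = 0.953). Fgf2, a fibroblast growth factor, also passed as lower in both comparisons with control (in EV tumours not under limma-voom, adjusted p = 0.108). It rests on few reads, 3 to 6 counts in each tumour library and 16 to 20 in each control library. Vegfd, a ligand of FLT4, passed as higher, 50.6-fold in MycT58A tumours and 79.5-fold in EV tumours (80.3- and 127-fold without control replicate 3), from a control mean of 0.105 CPM.

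Of the other angiogenic receptors 19 were tested. In MycT58A against EV tumours none rose and 2 fell, in EV tumours against control 10 rose and 1 fell, and in MycT58A tumours against control 4 rose and 3 fell. Of all genes, 8.3%, 57% and 62.2% passed in these comparisons. The median log2 fold changes of the receptors were -0.95, 1.10 and 0.16. Nrp1, a co-receptor for VEGF-A and semaphorins, was read at 46.5, 49.1 and 46.1 CPM in MycT58A tumours, at 166, 426 and 32.0 CPM in EV tumours and at 12.1, 17.8 and 14.7 CPM in control. It was 13.97-fold higher in EV tumours than in control (edgeR adjusted p = 0.00331; without EV replicate 2, 6.70-fold), and MycT58A tumours, all above control, were not called against it (1.67 ± 0.71, edgeR adjusted p = 0.068). That comparison passed in 5 of 16 alternatives: with only these groups in the fit (edgeR adjusted p = 3.12e-05), under limma-voom (0.000499), under DESeq2 (0.0351), without EV replicate 2 (0.0194) and without the library labelled EV replicate 3 (0.00245). MycT58A against EV tumours gave -2.14 ± 0.72 (edgeR adjusted p = 0.0897), and it passed under DESeq2 (0.0137) and without the library labelled EV replicate 3 (edgeR adjusted p = 0.00366). Nrp2, its paralog, averaged 88.3 ± 18.2 CPM in MycT58A tumours, 64.9 ± 22.9 CPM in EV tumours and 10.3 ± 3.50 CPM in control. Nrp2 was 8.59-fold higher in MycT58A tumours (edgeR adjusted p = 0.000198) and 6.31-fold higher in EV tumours (edgeR adjusted p = 0.000471) than in control.

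S1pr1, a lipid receptor of endothelium and astrocytes, averaged 21.2 ± 0.908 CPM in MycT58A tumours, 26.3 ± 11.1 CPM in EV tumours and 270 ± 29.9 CPM in control. It was 12.8-fold lower in MycT58A tumours (edgeR adjusted p = 6.28e-05) and 10.3-fold lower in EV tumours (edgeR adjusted p = 0.000101) than in control. Unc5b, a netrin receptor of vessel tips, averaged 50.8 ± 18.8 CPM in MycT58A tumours, 363 ± 147 CPM in EV tumours and 77.8 ± 18.7 CPM in control. It was 7.14-fold lower in MycT58A than in EV tumours (edgeR adjusted p = 0.0119) and 4.66-fold higher in EV tumours than in control (edgeR adjusted p = 0.00193). The call between the tumour groups was lost without MycT58A replicate 1, 2 or 3 (edgeR adjusted p = 0.0653, 0.0533 and 0.0666) and with only the tumours in the fit (0.0632). Flt4, the VEGF-C receptor, averaged 5.12 ± 1.72 CPM in MycT58A tumours, 8.84 ± 5.43 CPM in EV tumours and 7.59 ± 1.43 CPM in control and did not pass in any comparison (edgeR adjusted p = 0.312, 0.725 and 0.348 for MycT58A against EV, EV against control and MycT58A against control). Acvrl1 was the other receptor called between the tumour groups, lower in MycT58A tumours, and that call was lost without any 1 MycT58A library and with only the tumours in the fit (edgeR adjusted p = 0.0824).

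Of 20 endothelial markers apart from the 10 genes, all were tested and none was at 0 in any library. In MycT58A against EV tumours none rose and 1 fell, with a median log2 fold change of -1.29 and 19 of 20 below 0. In EV tumours against control 2 rose and 3 fell, with a median of 0.32. In MycT58A tumours against control 1 rose and 6 fell, with a median of -1.14 and 16 of 20 below 0. Their summed level was 141, 166 and 124 CPM in MycT58A tumours, 177, 528 and 175 CPM in EV tumours and 313, 321 and 276 CPM in control. Fli1 alone made up 64.2 CPM in EV replicate 1. Without the highest gene of each library the sums were 120, 130 and 100 CPM in MycT58A tumours. They were 113, 442 and 126 CPM in EV tumours and 263, 274 and 232 CPM in control. EV replicate 1 and the library labelled EV replicate 3 then lay inside the MycT58A range. The MycT58A tumours were thus below control in the list as a whole as well as in Tek and Flt1, and EV replicate 2 stood apart in the list as it did in Kdr, Tie1, Pecam1 and Cdh5. Without EV replicate 2 the median in EV tumours against control was -0.56 with 2 higher and 7 lower, and in MycT58A against EV tumours it was -0.35 with 2 higher and 1 lower. Without the library labelled EV replicate 3, 6 markers were lower in MycT58A than in EV tumours, where 25.7% of all genes passed.

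Of the markers that fell, Cldn5, the tight junction claudin, averaged 4.50 ± 1.36 CPM in MycT58A tumours, 11.8 ± 6.96 CPM in EV tumours and 47.1 ± 2.87 CPM in control. It was 10.5-fold lower in MycT58A tumours (edgeR adjusted p = 0.000431) and 3.99-fold lower in EV tumours (edgeR adjusted p = 0.00552) than in control, and it did not pass between the tumour groups (-1.39 ± 0.45, edgeR adjusted p = 0.0812), except under DESeq2 (0.0178) and without EV replicate 1 (edgeR adjusted p = 0.0196). Abcb1a, a drug efflux pump, averaged 4.48 ± 0.700 CPM in MycT58A tumours, 5.72 ± 5.68 CPM in EV tumours and 33.0 ± 1.53 CPM in control, and was 7.36-fold lower in MycT58A tumours (edgeR adjusted p = 0.00385) and 5.76-fold lower in EV tumours (edgeR adjusted p = 0.00801; without EV replicate 2, 13.4-fold). Ly6c1, a surface protein of brain endothelium in mice, fell 17.5-fold in MycT58A tumours (edgeR adjusted p = 0.000591) and 5.43-fold in EV tumours (edgeR adjusted p = 0.00663; without EV replicate 2, 10.7-fold) against control.

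The marker that rose in both comparisons with control was Fli1, an ETS factor, which averaged 19.8 ± 5.40 CPM in MycT58A tumours, 37.7 ± 28.1 CPM in EV tumours and 3.39 ± 0.671 CPM in control. It was 5.84-fold higher in MycT58A tumours (edgeR adjusted p = 0.0082) and 11.1-fold higher in EV tumours (edgeR adjusted p = 0.00256; without EV replicate 1, 7.23-fold) than in control. Fli1 is also made by blood cells, so it is not endothelial alone. Sox7, an endothelial SOX factor, was the marker called between the tumour groups, at 0.863, 0.319 and 0.298 CPM in MycT58A tumours, 16.5, 6.07 and 1.70 CPM in EV tumours and 1.43, 1.28 and 1.63 CPM in control (16.2-fold lower in MycT58A than in EV tumours, edgeR adjusted p = 0.0302). That value was 7.75-fold without EV replicate 1 (edgeR adjusted p = 0.0368), and the call was lost without any 1 MycT58A library (edgeR adjusted p = 0.0857, 0.118 and 0.129) or any 1 control library (edgeR adjusted p = 0.0602, 0.0624 and 0.0594) and with only the tumours in the fit (0.103). It was 5.58-fold higher in EV tumours than in control (edgeR adjusted p = 0.025), a call that 12 of 16 alternatives kept and that was lost without control replicate 1, 2 or 3 (edgeR adjusted p = 0.0715, 0.077 and 0.0629) or EV replicate 1 (2.69-fold, 0.102). Over the EV tumours Sox7 did not follow Cdh5, which was read at 7.40, 53.0 and 22.8 CPM there. Which cells held the Sox7 RNA was not tested. Slc2a1, the glucose transporter of the barrier, averaged 64.7 ± 7.05 CPM in MycT58A tumours, 66.3 ± 26.3 CPM in EV tumours and 102 ± 2.46 CPM in control. By edgeR with TMM scaling and all libraries it did not pass in any comparison (edgeR adjusted p = 0.0534 in MycT58A tumours and 0.0685 in EV tumours against control). All 6 tumours lay below all 3 control libraries. MycT58A tumours against control passed in 8 of 16 alternatives, with edgeR adjusted p = 0.000632 with only these groups in the fit and 0.00323 without the library labelled EV replicate 3. EV tumours against control passed in 2, under limma-voom (0.0482) and without the library labelled EV replicate 3 (edgeR adjusted p = 0.0012).

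Markers of other cells were summed in the same way, and their sums did not all move with the endothelial sums. Mural and fibroblast markers (17) summed to 1398, 1823 and 1611 CPM in MycT58A tumours, to 2720, 13579 and 8281 CPM in EV tumours and to 485, 544 and 505 CPM in control. In MycT58A against EV tumours 3 fell and all 17 log2 fold changes were below 0, in EV tumours against control 8 rose, and in MycT58A tumours against control 3 rose and 2 fell with a median of -0.13 and 10 of 17 below 0. Dcn, a matrix gene of fibroblasts, made up 1017, 1375 and 1316 CPM of the MycT58A sums, which without it were 382, 448 and 294 CPM. In the library labelled EV replicate 3 Col1a1 made up 6006 CPM. Pdgfrb, the receptor that marks pericytes, averaged 25.2 ± 5.14 CPM in MycT58A tumours, 137 ± 85.6 CPM in EV tumours and 23.9 ± 0.554 CPM in control. It was 5.43-fold lower in MycT58A than in EV tumours (edgeR adjusted p = 0.0227; not called without MycT58A replicate 1, 2 or 3 or control replicate 2, edgeR adjusted p = 0.0833, 0.0964, 0.105 and 0.0501, or with only the tumours in the fit, 0.0809) and 5.71-fold higher in EV tumours than in control (edgeR adjusted p = 0.00196).

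Microglia and macrophage markers (15) summed to 188, 87.5 and 132 CPM in MycT58A tumours, to 515, 765 and 528 CPM in EV tumours and to 218, 250 and 278 CPM in control. In the library labelled EV replicate 3, Tmem119 alone made up 338 CPM and the rest of the list 191 CPM, and its Csf1r level of 32.3 CPM lay below the 68.9 to 80.7 CPM of control. In MycT58A against EV tumours 5 fell and all 15 were below 0 (14 fell without the library labelled EV replicate 3), and in EV tumours against control 8 rose (3 rose and 1 fell without EV replicate 2). Of all genes, 8.3% and 57% passed in these comparisons, and 25.7% and 65.9% in the fits given in brackets. Csf1r, the macrophage growth factor receptor, averaged 19.3 ± 11.8 CPM in MycT58A tumours, 78.6 ± 42.3 CPM in EV tumours and 73.8 ± 6.21 CPM in control, and was 3.83-fold lower in MycT58A tumours than in control (edgeR adjusted p = 0.0148; without MycT58A replicate 3, 0.0504). Astrocyte markers (10) summed to 307 to 668 CPM in MycT58A tumours, 704 to 1564 CPM in EV tumours and 6186 to 11381 CPM in control. Of them 9 fell in MycT58A tumours and 7 in EV tumours against control; Aqp4, the water channel of astrocyte endfeet around vessels, was 23.1-fold lower in MycT58A tumours than in control (edgeR adjusted p = 0.0059). No marker of these lists was at 0 in any library. Their part in the levels of the 10 genes was not tested.

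Lymphatic markers (3 of 4 tested) and platelet markers (3 of 5 tested) gave no call in any comparison by edgeR with all libraries. Without EV replicate 2, 1 lymphatic marker was lower in EV tumours than in control, and 1 or 2 platelet markers passed in some alternatives. The platelet genes summed to 1.15 to 2.01 CPM in MycT58A tumours, 1.59 to 6.50 CPM in EV tumours and 2.61 to 3.43 CPM in control. The hypoxia response list (20 genes, Vegfa and Adm among them) summed to 5301, 5018 and 4265 CPM in MycT58A tumours, to 2848, 2440 and 6615 CPM in EV tumours and to 1847, 1786 and 1873 CPM in control. Ldha alone made up 2498, 2344 and 2060 CPM in MycT58A tumours, 777, 981 and 2586 CPM in EV tumours and 196, 186 and 253 CPM in control. In MycT58A tumours against control 7 rose and 4 fell, and in EV tumours against control 6 rose and 1 fell (4 and 4 without the library labelled EV replicate 3, which has the highest sum; 11 and 3 without EV replicate 2). Between the tumour groups 1 rose and 1 fell, and 7 rose and 1 fell without the library labelled EV replicate 3, where 25.7% of all genes passed. The hypoxia genes' part in the level of Vegfa was not tested.

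**Figure D5:**
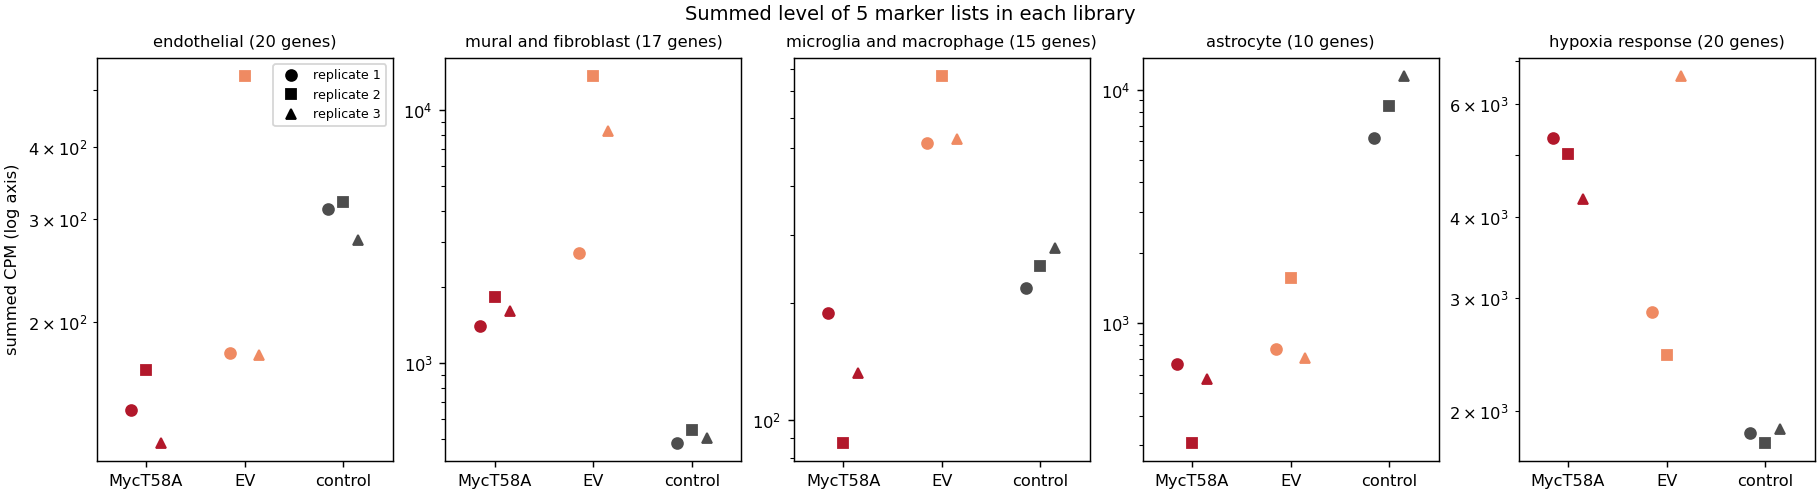
Summed CPM (log axis) of endothelial, mural and fibroblast, microglia and macrophage, astrocyte and hypoxia response genes in MycT58A tumours, EV tumours and control cerebellum; each point is a library, with a marker per replicate. Endothelial sums are 124 to 166 CPM in MycT58A tumours and 276 to 321 CPM in control, and EV replicate 2 is the highest library in the endothelial, mural and microglia panels.

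For 3 of the genes, the tested genes with the most similar pattern over the 9 libraries were found by the root mean square difference of log2 CPM after centring each gene. For Cdh5 they were 4930413F20Rik (0.23), Notch3 (0.26), Ldb2 (0.30), Fat1 (0.32) and Thnsl2 (0.32), against an SD of Cdh5 itself of 0.82. The level of 4930413F20Rik was low, from 0.171 CPM in EV replicate 1 to 1.23 CPM in EV replicate 2. Notch3, a receptor of mural cells, was read at 15.8, 24.1 and 12.2 CPM in MycT58A tumours, at 9.01, 53.1 and 37.8 CPM in EV tumours and at 19.8, 17.9 and 19.3 CPM in control. For Vegfa the most similar genes were Sptlc1 (0.25), Sil1 (0.25), Nr2c1 (0.27), Tceal8 (0.27) and Ap4b1 (0.27), against an SD of 0.54. Sptlc1, a subunit of the enzyme that starts sphingolipid synthesis, was read at 48.3, 54.7 and 43.9 CPM in MycT58A tumours, at 65.0, 41.5 and 68.0 CPM in EV tumours and at 34.4, 35.0 and 36.4 CPM in control. For Angpt2 the differences were larger, from 0.42 for Foxl2 to 0.47 for Pck2 with D630045J12Rik, Adamts6 and Fam175a between them, against an SD of 1.004. Foxl2 and Adamts6 were also low, at no more than 4.65 and 2.70 CPM in any library.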

How the data were processed

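RNA of 9 mouse libraries was counted per gene symbol, and the authors deposited whole-number counts for 24444 symbols. Per the submitters' processing notes, bcl2fastq, TopHat and edgeR were used with mm10; no source used here gives their versions, the counter, the annotation or strand use. The source name of the controls says cerebellum and a protocol mentions cortex; cerebellar markers were high in all 3.

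The members, lists, tests and alternatives were chosen with earlier results of these data known. Genes were kept with filterByExpr (minimum count 10, minimum total 15), scaled by TMM and tested with glmQLFit and glmQLFTest of edgeR 4.0.16 (R 4.3.3), with 1 mean per group over all 9 libraries and 6 residual degrees of freedom. Adjusted p-values are Benjamini-Hochberg over 15171 genes, and an SE is the log2 fold change over the root of F. Log2 CPM used a prior count of 2. The test was also run on simulated data with the same, capped spread in all groups. That check does not cover the wider spread of the EV tumours.

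Named are the 10 genes, up to 3 called genes of smallest p per list, comparison and direction (values are printed for some of them), and 7 fixed markers. Levels per kb used exon unions of GENCODE vM21. The 16 alternatives were a fit with no low-count filter, with a filter of 1 CPM, with RLE scaling, with library size alone, with only the 2 groups compared, DESeq2 1.42.0, limma-voom with group weights (limma 3.58.1), and leaving out each library. Figures used matplotlib 3.10.9 (Python 3.11.15).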

Additional observations from a re-analysis of the deposited data

How the results depend on the processing

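Over the 16 alternatives, the 30 fold changes of the 10 genes were recomputed 480 times: 437 kept direction and side of the threshold, 11 lost the call, 23 gained one and 9 changed sign. The 9 were, in MycT58A over EV, Angpt1 without EV replicate 1 (leaving out libraries gave -0.00286 to 1.74), Kdr without EV replicate 2 (-1.23 to 0.0128), Cdh5 without EV replicate 2 (-1.19 to 0.137) and Angpt2 without MycT58A replicate 2 (-0.108 to 1.04). In EV over control they were Pecam1 under limma-voom (-0.278) and, without EV replicate 2, Kdr (-0.581 to 0.66), Tie1 (-0.233 to 1.33) and Pecam1 (-0.828 to 0.47). In MycT58A over control it was Cdh5 without MycT58A replicate 2 (-0.130 to 0.51). The 53 results of list genes gave 846 recomputations, of which 771 kept their call, 43 lost it, 22 gained one and 10 changed sign. All 10 were of results not called: Slc2a1 in MycT58A over EV (0.0554 under limma-voom, -0.19 to 0.336 when libraries were left out), Flt4 (-0.0590 under limma-voom, -0.318 to 0.60) and Csf1r (-0.0514 under limma-voom, -0.280 to 0.48) in EV over control, and Pdgfrb in MycT58A over control (-0.0166 with library size alone, -0.0969 to 0.17).

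Of the 10 genes, 1 was called in MycT58A against EV, 3 under DESeq2, 0 with only these groups in the fit (edgeR) and 0 to 4 when libraries were left out; in EV against control 2 were called, and 1 to 6 when libraries were left out; in MycT58A against control 3 were called, 7 with only these groups, 7 under limma-voom and 2 to 5 when libraries were left out. Of all genes, 1259 were called in MycT58A against EV, 3446 under DESeq2, 449 under limma-voom, 34 with only these groups and 36 to 3977 when libraries were left out. Library size alone moved the median log2 fold change of all genes in MycT58A against EV from -0.04 to -0.17 and the share of called genes that were higher from 39.6% to 24.3%. The cause of these shifts was not tested. No paired analysis was possible because the replicate numbers were given in sample order and pair nothing. Groups of 3 limit every p-value, and Tek rests on 40 to 67 counts per MycT58A library.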
